A study of Homo sapiens with 21 samples.

Results

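Polycomb group genes encode the subunits and partners of chromatin complexes that keep genes silent. Their RNA was followed here in parental and treatment-resistant cancer cell lines. The 10 genes were EZH1, EZH2, EED, SUZ12, JARID2, BMI1, RNF2, CBX2, CBX7 and KDM6B, taken as a named list and matched by symbol to the Ensembl identifiers of the count files. They are 10 of 53515 genes in the files, and all 10 passed the filter on low counts.

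Polycomb repressive complex 2 (PRC2) adds methyl groups to a lysine of histone H3. Its catalytic subunit is EZH2 or EZH1, EED and SUZ12 form its core, and JARID2 is an accessory subunit. Polycomb repressive complex 1 (PRC1) adds ubiquitin to histone H2A through RNF2 with a partner such as BMI1, and CBX subunits such as CBX2 and CBX7 bind the mark that PRC2 leaves. KDM6B is a demethylase that removes that mark. EZH2 is known as a gene of dividing cells and EZH1 as the form kept in resting cells.

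RNA was sequenced in 21 libraries of 17 cell lines, 7 parental and 10 resistant. The resistant lines had been grown in rising doses of a drug over months, and their parents are given here as the labels and methods state them. HepG2S1 and HepG2S3 are resistant to sorafenib and derive from HepG2, a liver cancer line. PancB1Q and PancB1V are resistant to 5-fluorouracil and were compared with PancVB, the sensitive form of the pancreatic cancer line Panc03.27. Of the lung adenocarcinoma lines, HCC4006ER is resistant to erlotinib and derives from HCC4006P1, while HCC4006GR and HCC827GR are resistant to gefitinib and derive from HCC4006P2 and HCC827P. The paper gives HCC4006P1 and HCC4006P2 the same cell line identifier, and they are counted here as separate parental lines. Of the ovarian cancer lines, U10 and U100 are resistant to olaparib and derive from UWB1289, and IGROV-1/CDDP is resistant to cisplatin and derives from IGROV-1. HepG2, HepG2S3, HCC4006P1 and HCC4006ER have 2 libraries each and the other 13 lines have 1, and each resistant line is a single derivative of its parent. The labels do not say that replicate libraries came from separate cultures, so p-values measure the spread between these libraries, which may be technical.

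Totals ran from 9851195 to 36639473 counts on genes (median 19498932). HCC4006P1 replicate 1 has almost no counts (19, on 3 genes) beyond a point on the short arm of chromosome 7 and on chromosomes 8, 9, X and Y and the mitochondrial genome. EZH2, at 0 counts, is the only one of the 10 genes in that stretch. Levels are therefore given as counts per 1000000 (CPM) of the counts on genes before that point, and EZH2 has no value in that library. Tissue markers set several lines apart from the parent or tissue of their label. The 5 liver markers together came to 36139.5 CPM in HepG2, against 0.388 CPM in HepG2S1 and 32.7 CPM in HepG2S3, where albumin was at 0 and 11.3 CPM. The 4 lung markers, which include the lung transcription factor NKX2-1, summed to 368 CPM in HCC4006P2 but to 0.486 CPM in HCC4006P1 and 0.664 CPM in HCC4006ER. They were also lower in the gefitinib-resistant lines, at 30.3 CPM in HCC4006GR, and at 41.3 CPM in HCC827GR against 138 CPM in HCC827P. The ovarian lines held PAX8 at 469 to 891 CPM, with WT1 under 1 CPM. The fibroblast gene COL1A2 stood at 1653 CPM in HCC4006ER and 0.194 CPM in HCC4006P1, and at 124 CPM in HCC4006GR and 5.85 CPM in HCC4006P2. The blood markers PTPRC and CD3E stayed under 1 CPM in every line. The 4 markers of pancreatic duct, of which KRT7 is a general epithelial keratin, summed to 496 CPM in HepG2 against 3943 and 4008 CPM in HepG2S1 and HepG2S3. KRT7 made up most of the sum in these derivatives, at 3481 and 3598 CPM against 1.27 CPM in HepG2. KRT19 fell from 428 CPM to 130 and 202 CPM, while MUC1 and ONECUT2 rose. The 4 duct markers summed to 4653 CPM in HCC4006P1 against 226 CPM in HCC4006ER, and to 3995 CPM in PancVB against 1453 and 1163 CPM in PancB1Q and PancB1V. The identity of the lines was not tested, so the changes in every pair, those in HepG2S1, HepG2S3 and HCC4006ER among them, are differences between the libraries so labelled. The part that these differences play in the results was not tested.

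The promoters of the 2 catalytic genes and of SUZ12 are shown because they were the only 3 of 13 promoters, covering 9 of the 10 genes, that held a motif of the type bound by E2F factors, the transcription factors that turn on genes of the cell cycle. CBX2 had no entry. Sequences come from RefSeq (GRCh38.p14, whereas the files use hg19) and run from 250 bases before the start of transcription to 50 bases after it. The motifs searched on both strands were TTTCCCGC, TTTGGCGC, TTTCGCGC and TTTGCCGC, and the match is in capitals. EZH2 lies on the minus strand at chr7:148884242-148884541, SUZ12 on the plus strand at chr17:31936757-31937056, and EZH1 on the minus strand at chr17:42744991-42745290.
EZH2: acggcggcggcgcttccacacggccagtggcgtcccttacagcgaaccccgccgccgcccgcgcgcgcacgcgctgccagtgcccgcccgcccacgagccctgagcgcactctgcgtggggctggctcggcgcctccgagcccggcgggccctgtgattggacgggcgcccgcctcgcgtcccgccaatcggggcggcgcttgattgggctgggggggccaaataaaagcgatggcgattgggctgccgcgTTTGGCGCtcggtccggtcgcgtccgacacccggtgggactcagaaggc
SUZ12: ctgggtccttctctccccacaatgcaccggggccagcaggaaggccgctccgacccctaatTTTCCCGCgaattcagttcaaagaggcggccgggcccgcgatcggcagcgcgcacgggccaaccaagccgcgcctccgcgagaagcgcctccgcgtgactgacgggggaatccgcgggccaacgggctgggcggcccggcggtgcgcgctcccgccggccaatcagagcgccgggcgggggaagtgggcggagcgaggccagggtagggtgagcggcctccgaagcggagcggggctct
EZH1: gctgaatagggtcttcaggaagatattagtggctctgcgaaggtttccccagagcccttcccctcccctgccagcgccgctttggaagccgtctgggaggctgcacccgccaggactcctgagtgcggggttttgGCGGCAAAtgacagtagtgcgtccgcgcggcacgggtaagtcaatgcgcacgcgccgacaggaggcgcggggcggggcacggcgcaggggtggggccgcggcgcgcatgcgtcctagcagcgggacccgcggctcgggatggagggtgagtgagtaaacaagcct
A second EZH2 promoter held no match. Of 35116 promoters in the table, 1164 (3.31%) held one of these motifs, and a match is a description of the letters, not a binding site.

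Across 10 pairs of a resistant and a parental line, the 10 genes gave 100 comparisons, of which 28 were called at an adjusted p under 0.05 by edgeR, 20 higher and 8 lower in the resistant line. Of the 28 calls, 20 fell in HepG2S1, HepG2S3 and HCC4006ER, and the other 7 pairs gave 8 calls in 70 comparisons. Only HepG2S1, HepG2S3 and HCC4006ER have replicate libraries in the line or its parent, which makes a call easier. The standard error for EED was 0.16 in HepG2S3 and HCC4006ER and 0.19 in HepG2S1, against 0.22 in HCC4006GR. The part of replication in these counts was not tested. In HepG2S3, 9 of the 10 genes were called, 7 higher and 2 lower, against 55.8% of 16832 genes tested (27.2% higher and 28.6% lower). In HepG2S1 the count was 6, with 4 higher and 2 lower, against 45.1% of genes (21.2% higher and 23.9% lower). In HCC4006ER it was 5, with 3 higher and 2 lower, against 34.3% (18.2% higher and 16.1% lower). Calls numbered 2 each in PancB1Q (13.1% of genes), PancB1V (13.6%), HCC827GR (13.3%) and IGROV-1/CDDP (9.71%). Over all genes, the shares called higher in these pairs were 7.12%, 7.78%, 7.68% and 4.81%. Those called lower were 5.97%, 5.82%, 5.66% and 4.9%. None of the 10 was called in HCC4006GR (7.94%), U10 (4.44%) or U100 (1.47%) by edgeR, and 0 by DESeq2. At an unadjusted edgeR p under 0.05, 9 of the 30 comparisons in these 3 pairs passed. The share of all genes at that unadjusted threshold is not given here, so this count cannot be read as an excess. Pairs with many Polycomb calls were pairs with many calls over all genes, and the shares are plotted side by side. Without the 5 libraries of HepG2, HepG2S1 and HepG2S3, a fit chosen after the data were seen, 22 of 80 comparisons in the remaining 8 pairs were called, against 13 with them. The share of all genes called in that fit is not given, so the rise cannot be read as particular to the 10 genes.

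**Figure D1:**
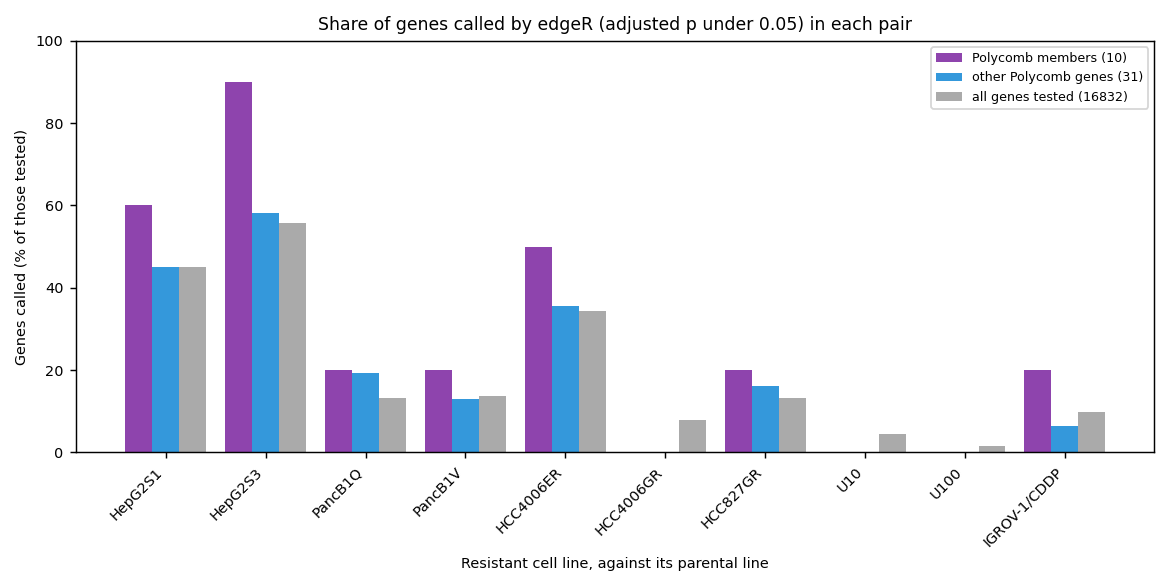
Share of genes called by edgeR at an adjusted p under 0.05 in each resistant line against its parental line, in percent of the genes tested, for the 10 Polycomb genes (purple), 31 other Polycomb genes (blue) and all 16832 genes tested (grey). Purple bars are highest where grey bars are highest, at 90% against 55.8% in HepG2S3, and are at 0 in HCC4006GR, U10 and U100.

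**Figure D2:**
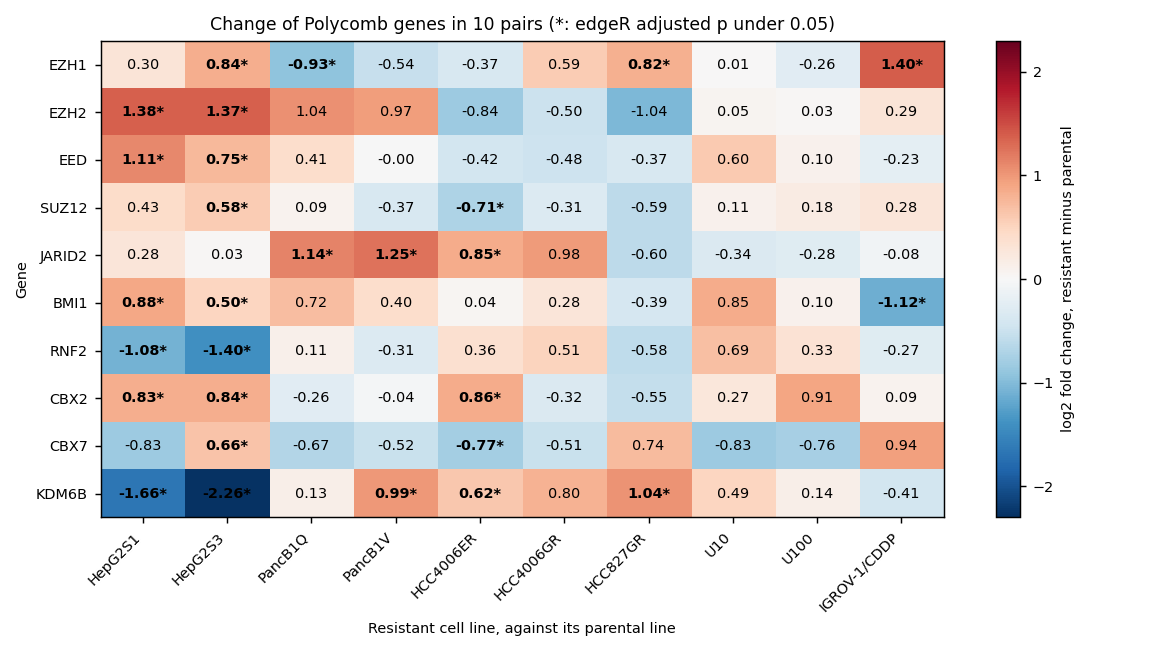
Log2 fold change of each Polycomb gene (rows) in each resistant line against its parental line (columns), with red for higher and blue for lower in the resistant line and an asterisk for an edgeR adjusted p under 0.05. KDM6B in HepG2S3 has the largest fall, at -2.26, and no column is of a single colour.

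EZH2 (chr7:148504349-148581413, minus strand, hg19), the catalytic subunit of dividing cells, rose in the sorafenib-resistant lines. It stood at 46.8 and 24.8 CPM in the HepG2 libraries, 126 CPM in HepG2S1, and 119.7 and 115 CPM in HepG2S3. All 3 resistant libraries lay above the pair of HepG2 libraries. The log2 change was 1.38 (SE 0.33, edgeR adjusted p = 0.0131) in HepG2S1 and 1.37 (SE 0.28, edgeR adjusted p = 0.00506) in HepG2S3, where 44% and 55.6% of 21638 genes were called in the fit that holds EZH2. CPM ratios were larger, with a log2 value of 1.82 in HepG2S1. They are not scaled by TMM and use the counts before the missing stretch, whereas the fit of EZH2 uses all genes with TMM. Without TMM, the median change of all genes was 0.23 for HepG2S1, 0.18 for HepG2S3, and -0.13 for PancB1Q.

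In the other pairs EZH2 did not pass the test, and its differences lay on both sides of 0. PancVB had 98.9 CPM, PancB1Q 186 CPM and PancB1V 194 CPM, log2 changes of 1.04 (nominal 95% interval 0.26 to 1.82) and 0.97 (0.19 to 1.75). The lung lines went the other way, from 57.4 CPM in HCC4006P1 replicate 2 to 32.3 and 36.5 CPM in HCC4006ER, from 42.4 CPM in HCC4006P2 to 28.9 CPM in HCC4006GR, and from 102 CPM in HCC827P to 51.1 CPM in HCC827GR. Their log2 differences were -0.84 (SE 0.34), -0.50 (SE 0.41) and -1.04 (SE 0.40), with edgeR adjusted p of 0.113 or more. In the ovarian lines EZH2 stood at 92.5 CPM in UWB1289, 93.2 CPM in U10 and 99.9 CPM in U100, where the interval of the change, -0.73 to 0.84 in U10, still admits large changes. IGROV-1 and IGROV-1/CDDP held 129 and 149 CPM.

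The calls for EZH2 depended on the HepG2 replicates, which differed 1.89-fold, the widest gap between replicates of any of the 10 genes. When either HepG2 library was left out, EZH2 was called in 7 pairs instead of 2, higher in HepG2S1, HepG2S3, PancB1Q and PancB1V and lower in HCC4006ER, HCC4006GR and HCC827GR. Without all 5 libraries of the HepG2 family it was called in the last 5 of these pairs. The spread of EZH2 then rests on HepG2S3 and HCC4006ER, or on HCC4006ER alone.

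Genes of cell division were read beside EZH2, since EZH2 belongs to dividing cells. Over 12 proliferation genes, among them MKI67, TOP2A and CDK1, the summed level was 1620 CPM in HepG2 replicate 1 and 443 CPM in replicate 2, the library with the lower EZH2. It was 4348 CPM in HepG2S1, and 4517 and 4125 CPM in HepG2S3. Of the 12 genes, 5 rose in HepG2S1 (median log2 change 1.73, against 0 over all genes) and 8 in HepG2S3 (1.89), while 2 fell in each of HCC4006ER (median -0.63), HCC4006GR (-1.83) and HCC827GR (-1.41). The called share of 41.7% in HepG2S1 was under the 45.1% of all genes, and the 16.7% in HCC4006ER was under its 34.3%. It was 66.7% in HepG2S3, against 55.8%, and 16.7% in HCC4006GR and HCC827GR, against 7.94% and 13.3%. In the Panc and ovarian pairs none was called, with medians of 0.70 in PancB1Q, -0.06 in PancB1V, -0.34 in U10, -0.70 in the U100 pair and 0.40 in IGROV-1/CDDP. In U100 EZH2 differed by 0.03 while the median of the proliferation genes was at -0.70, and in PancB1V EZH2 differed by 0.97 while that median was near 0. In bulk RNA, fewer dividing cells and less RNA per cell cannot be told apart, and the part of cell division in the EZH2 values was not tested.

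**Figure D3:**
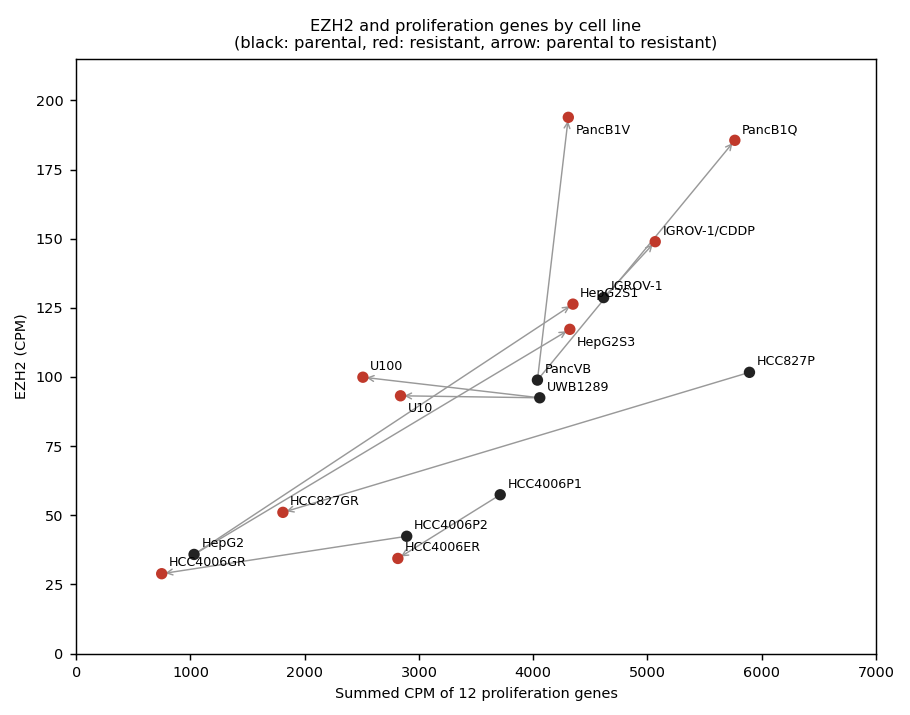
EZH2 level (CPM, vertical axis) against the summed CPM of 12 proliferation genes (horizontal axis) for 17 cell lines, with parental lines in black, resistant lines in red and an arrow from parent to derivative. HepG2 and HCC4006GR sit at the lower left, near 1031 and 748 CPM of proliferation genes, and PancB1V and PancB1Q at the top.

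EZH1 (chr17:40852293-40897067, minus strand), the catalytic subunit known from resting cells, was called in 4 pairs. It rose from 43.6 CPM in IGROV-1 to 109 CPM in IGROV-1/CDDP, a log2 change of 1.40 (SE 0.23, edgeR adjusted p = 0.00484) and the highest EZH1 level of the 17 lines. Its 20.6 and 21.9 CPM in HepG2 did not overlap the 51.5 and 41.6 CPM in HepG2S3 (log2 change 0.84, edgeR adjusted p = 0.00149). In HCC827GR it rose from 21.8 to 39.5 CPM (0.82, edgeR adjusted p = 0.0478), and in PancB1Q it fell from 56.9 to 26.9 CPM (-0.93, edgeR adjusted p = 0.0276). The last 2 calls were lost under DESeq2 and when any replicate library of HepG2S3 or HCC4006ER was left out.

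The balance of EZH2 to EZH1 was read within each library as a ratio of counts, so that its change between libraries depends on neither length nor depth. The ratio was above 1 in all 17 lines, from 1.16 in HCC4006GR to 6.90 in PancB1Q. The log2 ratio was 1.99 higher in PancB1Q and 1.53 higher in PancB1V than in PancVB, with 1 library a line. It went from 2.22 in HCC827P to 0.37 in HCC827GR. In IGROV-1/CDDP it went from 1.56 to 0.45, and there EZH1 was called and EZH2 was not. HepG2 spanned 0.18 to 1.19 between its replicates, and HepG2S3, at 1.22 and 1.46, lay just above that range. HepG2S1 lay further above it, at 1.90, and HCC4006GR was at 0.21 against 1.288 in HCC4006P2.

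**Figure D4:**
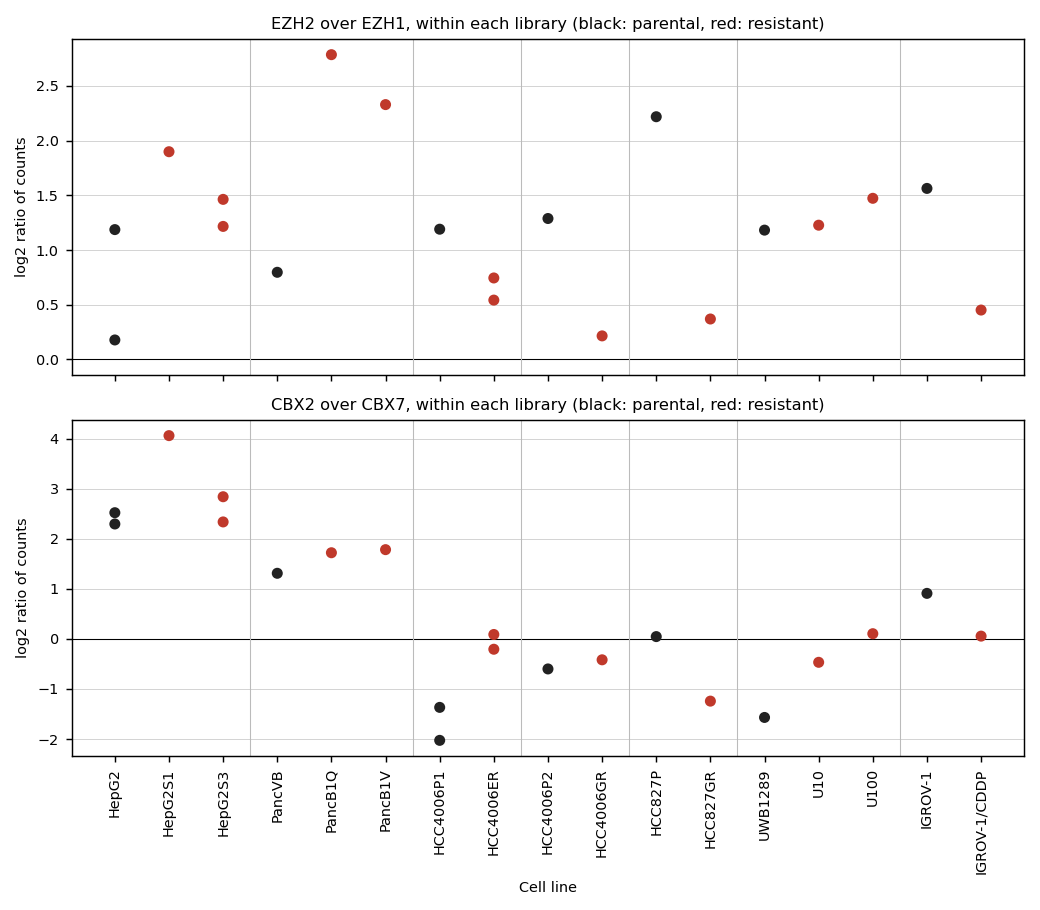
Log2 ratio of the counts of EZH2 to EZH1 (upper panel) and of CBX2 to CBX7 (lower panel) in each library by cell line, with parental lines in black, resistant lines in red and vertical lines between families. Every EZH2 to EZH1 point lies above 0, and the CBX2 to CBX7 points run from about -2 in HCC4006P1 to 4.06 in HepG2S1.

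EED (chr11:85912254-85989855, plus strand), the PRC2 subunit that binds the methyl mark, was lowest in HepG2. Its libraries stood at 16.96 and 18.2 CPM, against 43.5 to 69.9 CPM in the other 6 parental lines. HepG2S1 reached 49.0 CPM (log2 change 1.11, SE 0.19, edgeR adjusted p = 0.0011) and HepG2S3 36.3 and 36.1 CPM (0.75, SE 0.16, edgeR adjusted p = 0.00263). Neither resistant line overlapped HepG2, and both calls held under every alternative. In the other 8 pairs EED was not called, with log2 differences from -0.48 in HCC4006GR to 0.60 in U10.

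SUZ12 (chr17:30264026-30328057, plus strand), the core subunit that holds PRC2 together, was called in 2 pairs and in opposite directions. HepG2 had 89.8 and 75.3 CPM and HepG2S3 145 and 158 CPM, which did not overlap (log2 change 0.58, SE 0.16, edgeR adjusted p = 0.0109). HCC4006P1 had 94.5 and 75.7 CPM and HCC4006ER 57.1 and 49.7 CPM, also without overlap (-0.71, SE 0.16, edgeR adjusted p = 0.00736). The call was lost without HepG2S3 replicate 2 in the first pair and without HCC4006ER replicate 2 in the second. SUZ12 has a near-identical pseudogene copy, so its counts are uncertain where reads could be split. Over the 17 lines it ran from 53.4 CPM in HCC4006ER to 201 CPM in PancVB.

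JARID2 (chr6:15246300-15522273, plus strand), the accessory subunit that helps PRC2 find its targets, rose in 3 pairs and fell in none. It went from 27.5 CPM in PancVB to 54.6 CPM in PancB1Q (log2 change 1.14, SE 0.26, edgeR adjusted p = 0.0209) and 64.2 CPM in PancB1V (1.25, SE 0.26, edgeR adjusted p = 0.0129). HCC4006P1 held 37.6 and 37.5 CPM and HCC4006ER 67.7 and 72.3 CPM, without overlap (0.85, SE 0.18, edgeR adjusted p = 0.00541). In HCC4006GR the step from 23.2 to 43.8 CPM was of like size (0.98, SE 0.26) but missed the threshold (edgeR adjusted p = 0.0537). The gefitinib-resistant HCC827GR had a difference of -0.60 (nominal 95% interval -1.11 to -0.10). The PancB1Q call was lost without either HCC4006ER library and the HCC4006ER call without its replicate 2. JARID2-AS1 lies on the opposite strand of JARID2, and since the strand setting of the counting is not given in the sources used here, reads of the antisense gene may be included.

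Of the PRC1 genes, BMI1 (chr10:22610028-22620413, plus strand), the partner that activates RNF2, was highest in the HepG2 derivatives. It stood at 87.4 and 109.8 CPM in HepG2, 234 CPM in HepG2S1 and 156 and 186 CPM in HepG2S3. The groups did not overlap, with log2 changes of 0.88 (SE 0.19, edgeR adjusted p = 0.00396) and 0.50 (SE 0.16, edgeR adjusted p = 0.0217). The second call was lost under DESeq2, without HepG2 replicate 1 or HepG2S3 replicate 2, and in a fit of the 4 libraries of its pair alone. In IGROV-1/CDDP it fell from 106 to 46.2 CPM (-1.12, SE 0.23, edgeR adjusted p = 0.0148), to the lowest level of the 17 lines. U10 had 132 CPM against 75.4 CPM in UWB1289, a difference of 0.85 that missed the threshold (edgeR adjusted p = 0.074), and U100 had 85.6 CPM.

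RNF2 (chr1:185014658-185071735, plus strand), the ubiquitin ligase of PRC1, fell in both HepG2 derivatives while BMI1 rose. Its 38.8 and 37.1 CPM in HepG2 compared with 23.1 CPM in HepG2S1 (log2 change -1.08, SE 0.22, edgeR adjusted p = 0.00307) and 16.5 and 18.7 CPM in HepG2S3 (-1.40, SE 0.17, edgeR adjusted p = 7.85e-05). The groups did not overlap, and both calls held under every alternative. No other pair was called. IGROV-1, at 106 CPM, had the highest RNF2 level and IGROV-1/CDDP, at 82.9 CPM, the next, and the step from there to HCC827P at 47.1 CPM exceeded 2 standard errors of the difference.

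CBX2 (chr17:77751947-77761782, plus strand), a chromobox gene, rose in 3 pairs. HepG2 held 29.5 and 26.9 CPM, HepG2S1 64.7 CPM (log2 change 0.83, SE 0.21, edgeR adjusted p = 0.0109) and HepG2S3 58.6 and 65.5 CPM (0.84, SE 0.18, edgeR adjusted p = 0.00272). HCC4006P1 held 8.997 and 11.2 CPM and HCC4006ER 20.2 and 17.8 CPM (0.86, SE 0.19, edgeR adjusted p = 0.00656), a call lost without HCC4006ER replicate 1. Parental and resistant libraries did not overlap in these pairs. UWB1289 had 10.2 CPM and U100 20.1 CPM, but the log2 difference of 0.91 (SE 0.28) was not called (edgeR adjusted p = 0.165).

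CBX7 (chr22:39516172-39548685, minus strand), the other chromobox gene of the list, was called higher in HepG2S3, lower in HCC4006ER, and in no other pair. HepG2 had 6.02 and 4.69 CPM and HepG2S3 11.6 and 9.16 CPM (log2 change 0.66, SE 0.21, edgeR adjusted p = 0.0252), whereas HepG2S1 had 3.88 CPM, from 30 counts. HCC4006P1 had 36.6 and 29.0 CPM and HCC4006ER 19.0 and 20.5 CPM (-0.77, SE 0.21, edgeR adjusted p = 0.017). Neither pair overlapped, yet both calls were lost under DESeq2. The first was also lost in a fit of the 4 libraries of its pair alone and without HepG2 replicate 2 or HepG2S3 replicate 1, and the second without HCC4006P1 replicate 1 or either HCC4006ER library. Of the 10 pairs, 7 had a CBX7 difference below 0, the most of the 10 genes.

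As the mean over the libraries of a line, the log2 ratio of CBX2 to CBX7 counts ran from -1.70 in HCC4006P1, with -2.03 and -1.37 in its libraries, to 4.06 in HepG2S1. It was higher in the resistant line by 1.65 in HepG2S1, 1.64 in HCC4006ER, 1.67 in U100 and 1.10 in U10. The rise was smaller in HepG2S3 (0.18), PancB1Q (0.41), PancB1V (0.47) and HCC4006GR (0.18). The HepG2S1 value rests on 30 CBX7 counts, and neither gene was called in U10 or U100. HCC827GR and IGROV-1/CDDP went the other way, from 0.05 to -1.24 and from 0.91 to 0.06.

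KDM6B (chr17:7737535-7758114, plus strand), the demethylase that opposes PRC2, had the largest changes of the 10 genes. It fell from 96.0 and 76.8 CPM in HepG2 to 35.3 CPM in HepG2S1 (log2 change -1.66, SE 0.25, edgeR adjusted p = 0.000516) and to 24.6 and 19.5 CPM in HepG2S3 (-2.26, SE 0.19, edgeR adjusted p = 7.93e-06), with no overlap. Both calls held under every alternative. It rose from 77.3 to 163 CPM in HCC827GR (1.04, SE 0.26, edgeR adjusted p = 0.0314), from 28.3 to 55.3 CPM in PancB1V (0.99, SE 0.27, edgeR adjusted p = 0.0392), and from 85.4 and 64.4 CPM in HCC4006P1 to 118 CPM in both HCC4006ER libraries (0.62, SE 0.19, edgeR adjusted p = 0.0292). HCC4006GR, at 176 CPM against 106 CPM, had a difference of 0.80 that was not called (edgeR adjusted p = 0.107). Each of the 3 rises was lost when either HCC4006ER library was left out, those of HCC827GR and PancB1V also without either HepG2S3 library (that of PancB1V without TMM too), and that of HCC4006ER also without HCC4006P1 replicate 2.

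**Figure D5:**
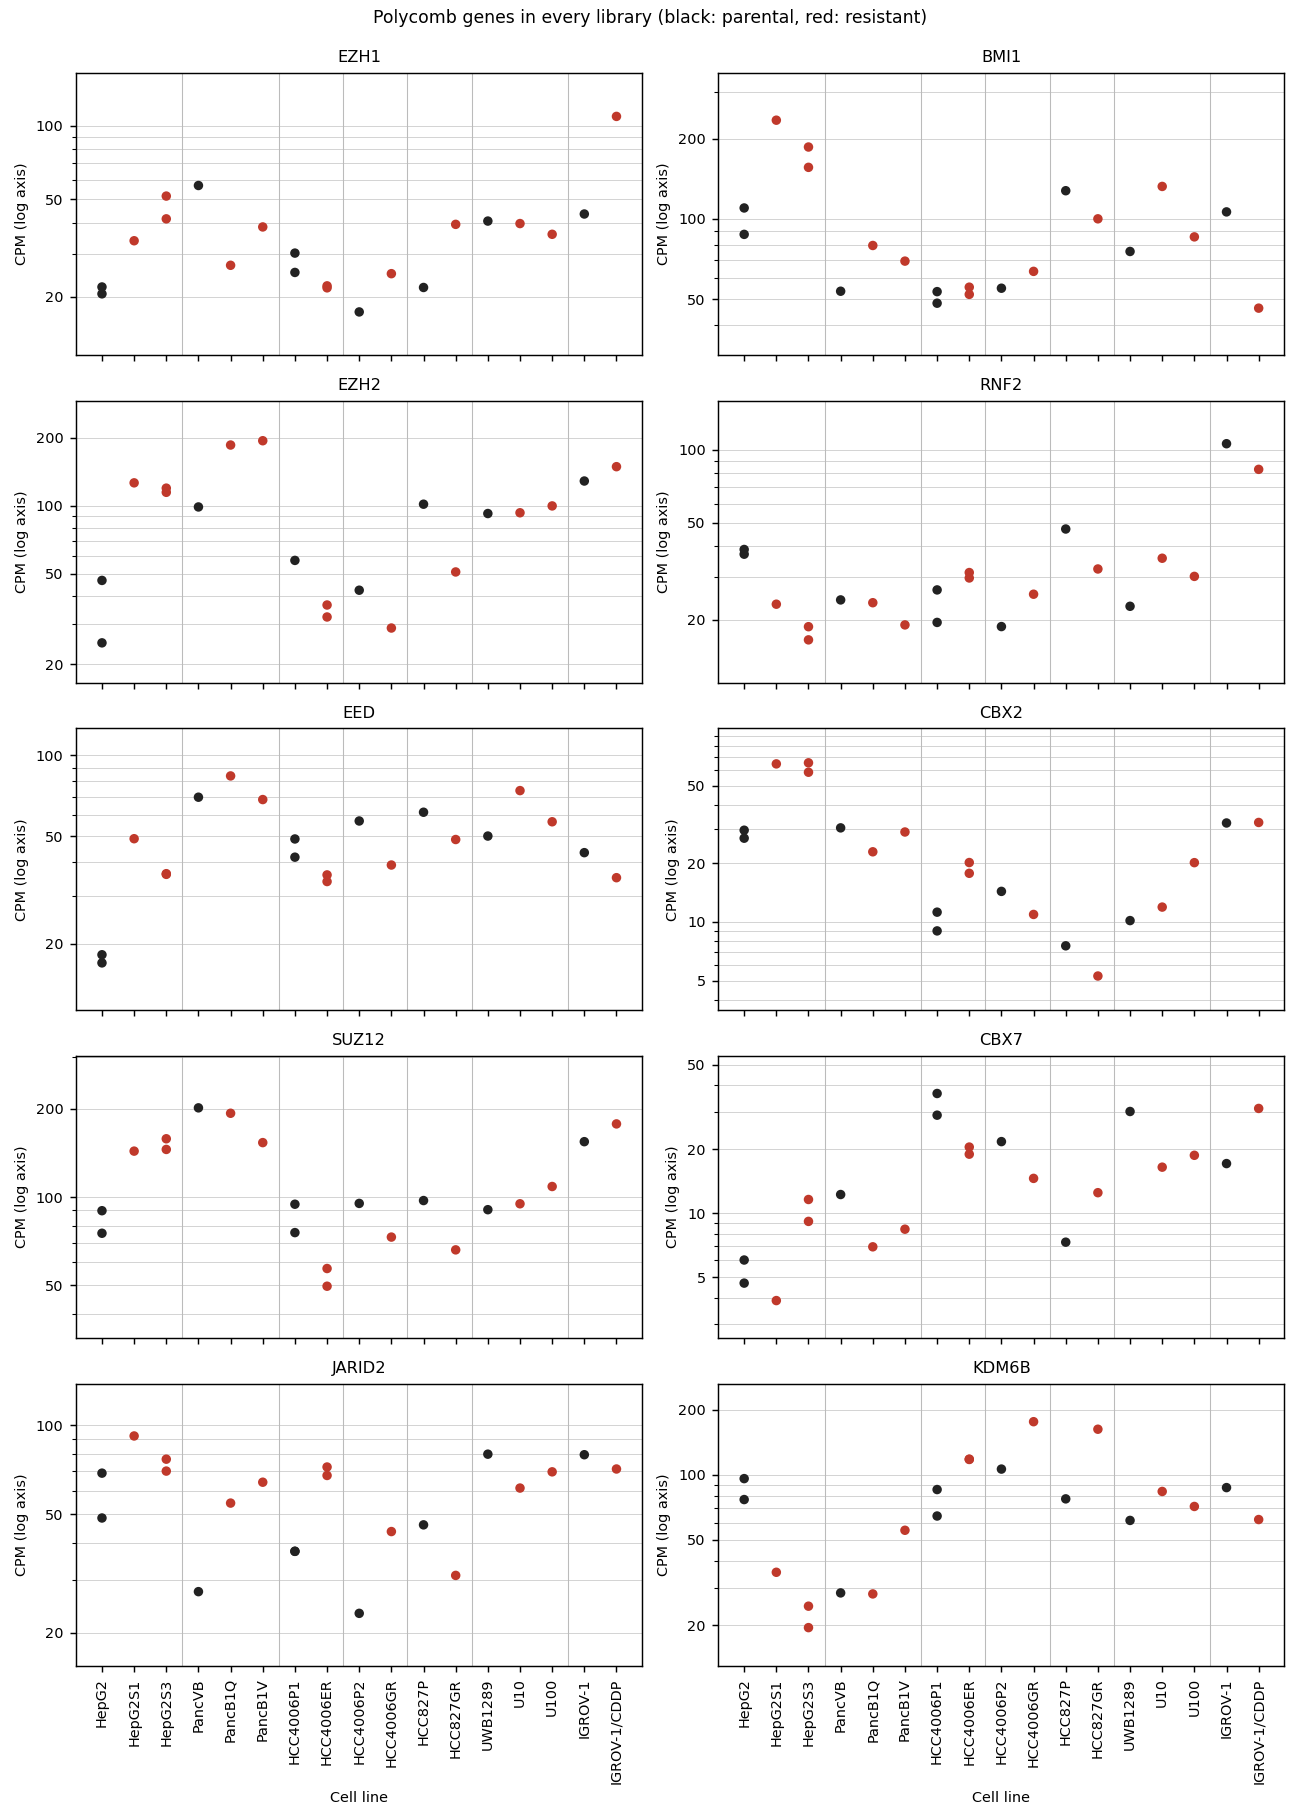
Level of each of the 10 Polycomb genes in every library (CPM, logarithmic axis, 1 panel a gene), by cell line, with parental lines in black and resistant lines in red and vertical lines between families. For EZH2, EED and BMI1 the HepG2 derivatives lie above HepG2, for RNF2 and KDM6B below it, and HCC4006P1 shows a single EZH2 point.

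Compared between genes per kilobase of the canonical transcript, the median level over 17 lines was highest for EZH2 at 37.3 CPM per kb, followed by EED at 23.5, BMI1 at 22.4 and SUZ12 at 21.6. KDM6B (11.1), JARID2 (10.2), EZH1 (7.77) and RNF2 (7.47) came next, and CBX2 (4.35) and CBX7 (3.55) were lowest. The methods also name a kit that reads the 3′ end of transcripts, without saying which libraries used it, and per-length values would not suit such libraries. Across lines, CBX2 varied most, 12.2-fold from 5.28 CPM in HCC827GR to 64.7 CPM in HepG2S1, and SUZ12 varied least, 3.76-fold. When the 17 lines were ordered by level, 150 of 160 steps between neighbouring lines lay within 2 standard errors of their difference, among them all 16 for each of EZH2, SUZ12 and JARID2. EZH1 in IGROV-1/CDDP over the next line, PancVB, and EED in HepG2 under the next line were among the 10 steps that exceeded it.

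HepG2S3 and HCC4006ER were the only resistant lines with 2 libraries on both sides, and the difference between their changes was tested directly. It was called by edgeR for 8 of the 10 genes, against 47.5% of genes tested. EZH2 had a log2 change of 1.37 in HepG2S3 and -0.84 in HCC4006ER, a difference of 2.21 (SE 0.44, edgeR adjusted p = 0.00599), taken without HCC4006P1 replicate 1. SUZ12 differed by 1.294 (edgeR adjusted p = 0.00115), EED by 1.17 (edgeR adjusted p = 0.00192), EZH1 by 1.21 (edgeR adjusted p = 0.00183) and CBX7 by 1.43 (edgeR adjusted p = 0.00323), all higher in HepG2S3. KDM6B (-2.88, edgeR adjusted p = 2.17e-05), RNF2 (-1.77, edgeR adjusted p = 0.000241) and JARID2 (-0.82, edgeR adjusted p = 0.0228) differed in the opposite sense. CBX2 rose in both lines by nearly the same amount, 0.84 and 0.86, a difference of -0.02 (SE 0.25), and BMI1 had changes of 0.50 and 0.04 (difference 0.46, edgeR adjusted p = 0.121).

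Across the 7 parental lines as 1 comparison, no Polycomb gene of the 10 passed the test. With 1 summed resistant and 1 summed parental profile for each parental line, none of the 10 was called by edgeR or by DESeq2, and none reached an unadjusted p under 0.05 by either. HCC4006P1 and HCC4006P2 entered as separate units although they share an identifier, so the 7 units are not all independent. Over all 15847 genes, edgeR called 0 (0%, with 722 genes at an unadjusted p under 0.05), and DESeq2 called 106 of the 14925 genes to which it gave an adjusted p. The mean log2 changes ran from -0.11 for RNF2 to 0.34 for EZH1 (SE 0.28), with EZH2 at 0.04 (SE 0.31) and KDM6B at 0.18 (SE 0.38).

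The other Polycomb genes were followed as a list of 34, of which 32 had a row in the files and 31 were tested. In HepG2S1, 2 rose and 12 fell (median log2 change -0.54, against 0 over all genes), and in HepG2S3, 5 rose and 13 fell (-0.36). In HCC4006ER, 8 rose and 3 fell (0.06, against 0.04 over all genes), and in HCC827GR 4 rose and 1 fell. PancB1Q had 4 higher and 2 lower, PancB1V 2 and 2, and IGROV-1/CDDP 1 and 1, while HCC4006GR, U10 and U100 had none. At 45.2% and 58.1% of those tested, the called shares in the HepG2 derivatives are near the 45.1% and 55.8% of all genes. All genes split into 21.2% higher and 23.9% lower for HepG2S1, and 27.2% and 28.6% for HepG2S3. The list's share was above that of all genes for HCC4006ER (35.5% against 34.3%), PancB1Q (19.4% against 13.1%) and HCC827GR (16.1% against 13.3%). It was below for PancB1V (12.9% against 13.6%) and IGROV-1/CDDP (6.45% against 9.71%). These differences in share were not tested.

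RBBP7, a histone-binding subunit of PRC2 and of other complexes, rose in 5 pairs, from 141 CPM in HepG2 to 436 CPM in HepG2S3 (log2 change 1.30, edgeR adjusted p = 0.000111). MGA, a subunit of a PRC1 variant, rose in HepG2S1 (1.13), HepG2S3 (0.71), PancB1Q (0.70) and PancB1V (0.72), and PCGF6, of the same variant, in 3 pairs. KDM6A, the second demethylase of the PRC2 mark, fell in 4 pairs, from 60.9 to 24.3 CPM in HepG2S1 (-1.75, edgeR adjusted p = 0.000418) and from 18.7 to 7.90 CPM in PancB1V (-1.25, edgeR adjusted p = 0.0133). ASXL2, a partner of the deubiquitinase BAP1, fell in HepG2S1, HepG2S3 and HCC4006ER by 0.51 to 0.92 on the log2 scale.

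The genes whose level over the 17 lines was most like that of EZH2, among 10817 genes with a mean of at least 10 CPM, were NOM1 (Pearson r 0.93), SKA1 (0.92), BUD13 (0.91), FANCD2 (0.91) and CDC25A (0.91). For CBX7 they were UBXN7 (0.85), RBM43 (0.83), CRACDL (0.82), SSH3 (0.82) and VANGL1 (0.81). Among the 10 genes themselves, EZH2 and SUZ12 had an r of 0.84, EZH2 and KDM6B -0.71, SUZ12 and KDM6B -0.80, and BMI1 and CBX7 -0.65. These values describe 17 lines that fall into 7 families with shared parents, with HCC4006P1 and HCC4006P2 in separate families, so no test is given.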

How the data were processed

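RNA sequencing gave 21 libraries of 17 cell lines. The authors trimmed the reads, mapped them with Bowtie and TopHat or with STAR, counted them per gene with HTSeq and deposited the count of reads per gene without normalization. The reads were mapped to hg19 per the labels. Versions, the gene annotation and the strand setting are not given in the sources used here. The labels name a stranded mRNA kit, and the methods also name a 3′ kit without saying for which libraries.

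The 5 summary lines of each file were left out. They include reads on no gene (5.24% to 14.0%), reads on several genes (2.41% to 3.29%) and reads mapped to several places (19.3% to 31.9%). Each percentage is of the counts on genes and in the 5 summary lines together. Positions came from GENCODE 44 on GRCh37, where 45100 genes (84.3%) matched. In HCC4006P1 replicate 1, all of the 1679 genes of the missing stretch that reached 50 counts in replicate 2 were at 0. In replicate 2, 18.1% of counts fell there. CPM used the counts before the stretch.

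The main test was the quasi-likelihood test of edgeR 4.0.16 with TMM and filterByExpr, at a threshold of 0.05 on p adjusted by Benjamini-Hochberg, in 1 fit of all 21 libraries with 1 coefficient per cell line. Single libraries were assumed to vary like the replicated lines. EZH2 and the other genes of the stretch were taken from the same fit on all genes without HCC4006P1 replicate 1. Counts summed per parental line were tested with the parental line as a block, without that library. Intervals of log2 changes are nominal 95% intervals, taken from the standard error and a normal distribution. They are narrower than the edgeR test allows. For SUZ12 in HepG2S1 the interval was 0.05 to 0.80, while the unadjusted edgeR p was 0.053. Replicate letters A and B were read as replicates 1 and 2. A second label gives both HepG2 libraries 1 number, and likewise both HepG2S3 libraries, so their independence is unsure. Replicates differed beyond counting noise: chi-square divided by its degrees of freedom was 5.97 to 105.

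The 10 genes and all gene lists were chosen with earlier results of these data known. Named genes were all 10 members, other Polycomb genes called in 1 direction in at least 3 pairs, and the 5 genes most correlated with EZH2 and with CBX7 over log2(CPM + 1). A gene that this rule names is not reported here. On simulated counts for 16832 genes with 200 changed 4-fold, the test recovered 174 in HepG2S3 and 131 in HCC4006GR, with 5.95% and 5.76% of calls false. The test over parental lines recovered 81, with 2.41% false. In the simulation of the pairs all libraries shared the same spread for a gene, so the assumption on single libraries was built in. Far fewer genes were changed than were called in HepG2S3. The false shares may therefore not hold for the real libraries. Alternatives used DESeq2 1.42.0, other scalings and filters, other library choices, and each replicate library left out. R 4.3.3 and Python 3.11.15 were used.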

Additional observations from a re-analysis of the deposited data

Results flagged for a closer look

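Of 20 checks of the 10 genes over the 7 parental lines, of level and of change, 2 found a line far from the others, where chance gives about 1 in 20. That rate takes the lines as independent, although HCC4006P1 and HCC4006P2 share an identifier. EED stood lowest in HepG2 at 17.6 CPM, with a gap to the nearest other line of 0.657 of the whole log2 range, and KDM6B stood lowest in PancVB at 28.3 CPM, with a gap of 0.585. These checks used CPM, which is not scaled by TMM. In the fit with TMM, the log2 level of EED relative to the top line was -2.035 in HepG2, -1.28 in IGROV-1 and -0.411 in PancVB. HepG2 is still lowest there, but its gap is a smaller part of the range.

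The changes of 8 genes differed between HepG2S3 and HCC4006ER by the edgeR test of the difference itself. In log2 units, HepG2S3 minus HCC4006ER, the values were 2.21 for EZH2, 1.21 for EZH1, 1.17 for EED, 1.294 for SUZ12, 1.43 for CBX7, -0.82 for JARID2, -1.77 for RNF2 and -2.88 for KDM6B. HepG2S3 and HCC4006ER differ in tissue, drug and loss of tissue markers at once, which cannot be told apart.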

How the results depend on the processing

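Of the 28 called changes, 10 were kept under every alternative and 18 were lost under at least 1. The 10 are those of KDM6B, RNF2 and EED in both HepG2 derivatives, EZH1 in HepG2S3 and IGROV-1/CDDP, CBX2 in HepG2S3 and BMI1 in HepG2S1. With the missing stretch read as 0 counts, the calls fell to 15, with 0 in PancB1Q, PancB1V and HCC827GR, 1 in IGROV-1/CDDP and 0 for EZH2, whose change in HCC4006ER turned to 0.0941. DESeq2 gave 1 call in PancB1Q and 1 in HCC827GR, library totals without TMM 1 in PancB1V, and no filter on low counts 1 in HCC4006GR and 1 in HCC827GR. Without the libraries of the HepG2 family, an alternative chosen after seeing the data, 22 changes were called in place of 13, with 4 in PancB1Q, 2 in HCC4006GR and 1 in U10. The share of all genes called under each alternative is not given. Leaving out each replicate library gave 19 to 42 calls in all, 6 to 8 in HepG2S1, 7 to 9 in HepG2S3, 0 to 4 in PancB1Q, 1 to 3 in PancB1V, 1 to 7 in HCC4006ER, 0 to 3 in HCC4006GR, 0 to 5 in HCC827GR, 0 to 1 in U10, 0 in U100, 2 to 3 in IGROV-1/CDDP, 2 to 7 for EZH2 and 7 to 9 for the difference between HepG2S3 and HCC4006ER. The count in HCC4006ER was 2 without its replicate 1 and 1 without its replicate 2. The causes were not tested. The 7 parental lines together gave 0 calls under every alternative. With the replicate number as a block in the 4 libraries of a pair, HepG2S3 had 8 calls (9 in the main test, with CBX7 lost) and HCC4006ER 7 (5 in the main test), and replicate deviations correlated at 0.06 and 0.47. With 2 pairs each and no label that ties a number to a batch, the numbers are not known to pair the libraries.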

Other observations

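Some other Polycomb genes with large changes are named here after their values were seen. PHC2, a scaffold subunit of PRC1, stood at 213 CPM in HepG2, 34.4 CPM in HepG2S1 and 57.6 CPM in HepG2S3, with log2 changes of -3.00 (edgeR adjusted p = 1.63e-05) and -2.18 (edgeR adjusted p = 7.94e-06). PHC1, its paralog, rose from 4.35 CPM in HCC4006P1 to 20.8 CPM in HCC4006ER (2.21, edgeR adjusted p = 0.000247). PHF19, an accessory subunit of PRC2, rose from a mean of 27.6 CPM in HepG2 to 138 CPM in HepG2S3 (1.97, edgeR adjusted p = 0.00921). Its HepG2 libraries lay far apart, at 41.8 and 13.5 CPM, against 145 and 131 CPM in HepG2S3. The lower value was in replicate 2, the HepG2 library with the lower sum of proliferation genes. AUTS2, a partner in a PRC1 variant, stood at 0.0645 CPM in HCC4006P1 and 20.2 CPM in HCC4006ER (edgeR adjusted p = 0.000869). It lies in the stretch that HCC4006P1 replicate 1 lacks, so its parental level is that of 1 library.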
